A study of Mus musculus with 10 samples.

Results

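The miR-17-92, miR-106b-25 and miR-106a-363 clusters are 3 groups of miRNA hairpins, each group processed from its own primary transcript. Of their guide arms, the strands that are loaded into Argonaute, 10 were chosen by name from the 1892 miRNAs on the array. They are 6 from miR-17-92, 3 from miR-106b-25 and miR-20b-5p from miR-106a-363. Other guide arms of miR-106a-363, such as miR-106a-5p, are described as relatives. The names alone picked the members, in a choice made with earlier results of these data known. They were compared between 5 T-C cell arrays and 5 Control cell arrays, named by the sample titles, all from Mus musculus.

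The labels describe both groups as sle liver, name a standard mouse liver cell culture and give every animal as male; no age is stated in the sources used here. T-C cell samples carry the source label Col-/- (also spelled Col -/-), and Control cell samples carry Control Col. The treatment text, the same for all 10 samples, gives 0.5 mg of TN-CF to a dish of 100000 T-C cells over 24 hours and mentions a control, so treatment and source cannot be told apart. What Col, sle, T-C and TN-CF abbreviate is not stated, and the series' design text writes TB-CF. The labels do not tie replicates to separate animals or cultures, so p-values measure only how these samples spread, and that spread may be technical.

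The miR-17-92 cluster is known as a growth-promoting miRNA locus. Myc and E2F factors raise its transcription, and its miRNAs repress the cell cycle inhibitor Cdkn1a and the pro-apoptotic protein Bim. The miR-106b-25 cluster lies inside Mcm7, a gene for a subunit of the DNA replication helicase. In liver these clusters are linked to proliferating and tumour cells more than to resting hepatocytes.

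A miRNA finds its targets mainly through its seed, bases 2 to 8 from the 5′ end, and the 10 miRNAs hold 4 seeds. The sequences, copied from the deposited array files, are shown to make the seed groups and the near-identity within them visible; capitals mark the seed. The miR-17 seed group:
mmu-miR-17-5p: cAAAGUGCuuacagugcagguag
mmu-miR-20a-5p: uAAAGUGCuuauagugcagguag
mmu-miR-20b-5p: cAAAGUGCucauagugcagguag
mmu-miR-93-5p: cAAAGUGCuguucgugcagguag
mmu-miR-106b-5p: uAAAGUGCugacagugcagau
The miR-18 seed group:
mmu-miR-18a-5p: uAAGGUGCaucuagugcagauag
The miR-19 seed group:
mmu-miR-19a-3p: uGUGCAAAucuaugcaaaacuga
mmu-miR-19b-3p: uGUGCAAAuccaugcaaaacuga
The miR-92 seed group:
mmu-miR-92a-3p: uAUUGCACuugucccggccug
mmu-miR-25-3p: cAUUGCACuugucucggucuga

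Counted from the 5′ end of the first-named miRNA, miR-19a-3p and miR-19b-3p differ only by U11C. miR-17-5p differs from miR-20a-5p by C1U and C12U, and from miR-20b-5p by U10C and C12U. Probes for such close sequences may share signal, which leaves the value of each member uncertain. The array held 17 miRNAs with 1 of the 4 seeds. The 7 besides the 10 were miR-106a-5p, miR-18b-5p and miR-363-3p of the miR-106a-363 cluster, and miR-92b-3p, miR-32-5p, miR-367-3p and miR-6383 from elsewhere.

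All 10 sequences matched RefSeq mature miRNAs on GRCm38.p6. The miR-17-92 hairpins span chr14:115043671-115044506 on the plus strand, exonic in Mir17hg, a lincRNA gene of GENCODE M21. The miR-106b-25 hairpins span chr5:138165321-138165818 on the minus strand, within Mcm7. There, miR-106b-5p is intronic, and miR-93-5p and miR-25-3p overlap an exon of at least 1 annotated Mcm7 transcript. The miR-106a-363 hairpins span chrX:52741693-52742567 on the minus strand, where miR-20b-5p lies at chrX:52742159-52742181, outside other annotated genes. miR-19b-3p and miR-92a-3p each have a second hairpin in this X-linked cluster, so their brightness cannot be split between the 2 loci.

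**Figure D1:**
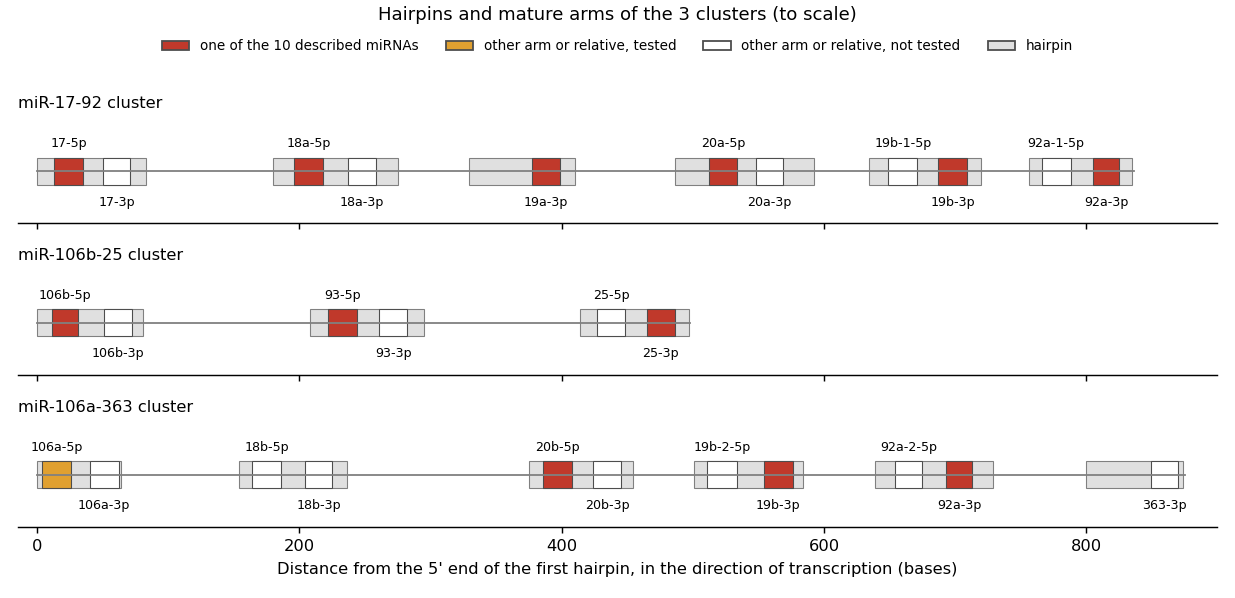
Hairpins (grey) and mature arms of the 3 clusters, to scale, as distance in bases from the 5′ end of the first hairpin (x axis); red arms are the 10 miRNAs, orange is the tested relative miR-106a-5p, and white arms were not tested. miR-19b-3p and miR-92a-3p appear in 2 clusters; miR-19a-5p and miR-363-5p are not drawn.

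The values are median spot intensities, a linear scanner brightness, averaged over the 2 spots of a miRNA. A miRNA was counted as detected on an array where this mean exceeded the mean of that array's 16 blank spots plus 3 SD, a limit between 64.0 and 474. Between 189 and 1314 miRNAs were detected per array. Precision is limited by the number of arrays, 5 in a group. The first principal component of the normalized levels held 50.4% of the variance. On it, T-C cell arrays lay from −15.8 to −1.34 and Control cell arrays from 1.63 to 8.05. T-C cell replicate 1, at −15.8, stood apart, and T-C cell replicate 3 had the highest detection limit. miR-122-5p, the defining miRNA of hepatocytes, exceeded the limit on 1 of 10 arrays, with raw intensities from 57.8 to 193, so the liver label was not matched by this marker. The other 4 hepatocyte miRNAs listed, which other tissues also express, exceeded the limit on all 10 arrays.

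The 10 guide arms were not resolved as different between T-C cell and Control cell samples. After normalization of log2(intensity + 50), 0 of 10 passed an adjusted p of 0.05 with limma (adjusted over 476 tested miRNAs, adjusted p from 0.522 to 0.953). Over all tested miRNAs 7.77% passed, of which 7 (1.47%) rose and 30 (6.3%) fell in T-C cell samples. Those counts were 14 and 33 with quantile normalization and 1 and 13 with median centring. Without a threshold on the adjusted p, 0 of 10 had an unadjusted limma p under 0.05, against 18.3% of all tested miRNAs. By exact two-sided permutation of the 5 against 5 arrays, the unadjusted p of the 10 ranged from 0.0952 to 0.929. After adjustment 0 of 476 miRNAs passed. The smallest p this permutation can give is 0.00794, which leaves little room for a pass after adjustment, so that 0 is not a result about the miRNAs. Groups overlapped for 10 of 10, while 3.78% of all tested miRNAs had groups that did not overlap. The 95% intervals of the 10 differences together ran from 0.551-fold to 1.83-fold, so each excluded a 2-fold change in either direction on this scale and in this fit. Intervals under other scalings are not given and can be wider, so the exclusion may not hold there. Background was left in the intensities, which narrows the differences of faint miRNAs such as miR-19a-3p. For these the exclusion does not extend to the amount of RNA. For miR-20b-5p the log2 difference was 0.37 here and 0.36 with median centring, while the unadjusted limma p was 0.144 here and 0.473 there.

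The estimates lay above 0 for 8 of the 10 and below 0 for miR-19a-3p and miR-19b-3p, with a median log2 difference of 0.10 (T-C cell minus Control cell). Among all tested miRNAs 52.9% lay above 0, with a median of 0.02. The signs of several members were not stable: with array weights, which give less weight to noisier arrays, 4 of 10 lay above 0, and without Control cell replicate 4 the count was 5. The median over all tested miRNAs was 0.14 without normalization between arrays, and that of the 10 members was then 0.18. With quantile normalization these medians were 0.05 and 0.23, and 8 of 10 lay above 0. There miR-25-3p had an unadjusted limma p of 0.0464 (adjusted p = 0.268), where 86 of 476 tested miRNAs had one under 0.05. Without T-C cell replicate 2, miR-20b-5p had an unadjusted limma p of 0.0251.

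**Figure D2:**
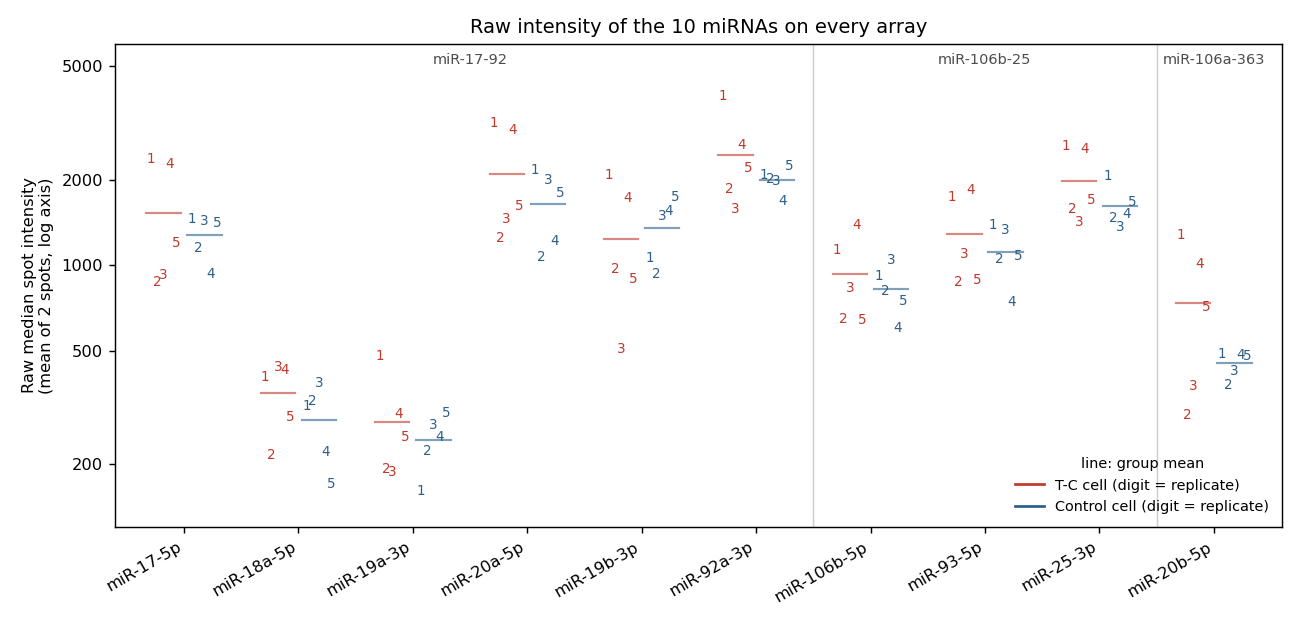
Raw median spot intensity (y axis, log scale, mean of 2 spots) of each of the 10 miRNAs (x axis), where digits are replicate numbers (red, T-C cell; blue, Control cell) and lines are group means. Red digits 1 and 4 lie above all blue digits for 8 of the 10, the exceptions being miR-19a-3p and miR-19b-3p. The same held for miR-126a-3p, not drawn (5071 and 5079 against at most 3842), but not for miR-21a-5p (10893 and 15929 against at most 17544). The share over all tested miRNAs was not counted.

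In the miR-17 seed group, miR-17-5p, the founding member of miR-17-92, had raw intensities of 2354, 874, 921, 2265 and 1193 on T-C cell replicates 1 to 5. On Control cell replicates 1 to 5 it had 1452, 1151, 1429, 934 and 1409. T-C cell replicates 1 and 4 lay above all Control cell arrays and replicates 2 and 3 below all of them. Its normalized log2 level was 10.43 ± 0.33 on T-C cell arrays and 10.37 ± 0.22 on Control cell arrays (SD, n = 5 each), a difference of 0.06 (95% interval −0.34 to 0.47, limma adjusted p = 0.904).

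miR-20a-5p, from the same primary transcript, had raw intensities of 3172, 1246, 1456, 2982 and 1610 on the T-C cell arrays. The Control cell arrays gave 2161, 1067, 1986, 1212 and 1796. Again T-C cell replicates 1 and 4 were above every Control cell array, and the other 3 lay among them. The log2 difference was 0.22 (95% interval −0.23 to 0.67, limma adjusted p = 0.680).

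miR-20b-5p, the member taken from the X-linked cluster, had the largest estimate of the 10. Its raw intensities were 1276, 297, 376, 1007 and 715 on the T-C cell arrays. They were 488, 380, 425, 484 and 479 on the Control cell arrays. The Control cell values thus spanned 1.29-fold and the T-C cell values 4.30-fold, with 3 T-C cell arrays above and 2 below all Control cell arrays. The normalized log2 level was 9.41 ± 0.49 against 9.05 ± 0.19 (SD, n = 5 each), a difference of 0.37 (95% interval −0.14 to 0.87, limma adjusted p = 0.522). Its adjusted p was lowest without T-C cell replicate 2, where the difference was 0.53 (limma adjusted p = 0.151), and without T-C cell replicate 1 the difference was 0.24 (limma adjusted p = 0.674).

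miR-106b-5p and miR-93-5p share the miR-17 seed and the Mcm7 transcript. miR-106b-5p had raw intensities of 1132, 645, 832, 1386 and 642 on T-C cell arrays, and of 914, 808, 1041, 601 and 749 on Control cell arrays. miR-93-5p had 1738, 869, 1094, 1833 and 883 on T-C cell arrays, and 1382, 1051, 1332, 743 and 1075 on Control cell arrays. For both, T-C cell replicates 1 and 4 were the highest arrays of the series and Control cell replicate 4 the lowest. The log2 differences were 0.03 (95% interval −0.38 to 0.43, limma adjusted p = 0.953) for miR-106b-5p and 0.07 (−0.33 to 0.47, limma adjusted p = 0.889) for miR-93-5p.

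miR-18a-5p is the only guide arm of miR-17-92 with the miR-18 seed, which differs from the miR-17 seed at a single base. It was faint, with raw intensities of 405, 214, 437, 429 and 291 on T-C cell arrays, and of 319, 333, 383, 220 and 169 on Control cell arrays. On T-C cell replicate 3 its 437 lay below the detection limit of 474. On Control cell replicate 2 its spots read 418 and 247, the widest disagreement between spots among the 10 miRNAs. The log2 difference was 0.13 (95% interval −0.26 to 0.51, limma adjusted p = 0.782).

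The miR-19 seed group, whose members carry much of the cluster's lymphoma-promoting activity, held the 2 estimates below 0. miR-19b-3p had raw intensities of 2069, 968, 506, 1726 and 895 on T-C cell arrays, and of 1061, 929, 1484, 1553 and 1731 on Control cell arrays. T-C cell replicate 1 was the brightest array and replicate 3 the faintest of all 10. The normalized log2 level was 10.11 ± 0.44 against 10.44 ± 0.38 (SD, n = 5 each), a difference of −0.33 (95% interval −0.86 to 0.20, limma adjusted p = 0.603).

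miR-19a-3p was the faintest of the 10 by group mean and exceeded the detection limit on 6 of 10 arrays. Its raw intensities were 479, 192, 186, 299 and 247 on T-C cell arrays, and 161, 222, 275, 248 and 303 on Control cell arrays. On T-C cell replicate 3 its 186 lay below the mean of that array's blank spots, 223. The log2 difference was −0.03 (95% interval −0.52 to 0.45, limma adjusted p = 0.952), and it was above 0 under median centring (0.03) and without normalization (0.14).

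In the miR-92 seed group, miR-92a-3p, known for restraining vessel growth in endothelial cells, was the brightest of the 10 by group mean. Its raw intensities were 3932, 1855, 1574, 2650 and 2194 on T-C cell arrays, and 2077, 2015, 1975, 1677 and 2233 on Control cell arrays. T-C cell replicates 1 and 4 lay above all Control cell arrays and replicate 3 below all of them. The log2 difference was 0.15 (95% interval −0.18 to 0.48, limma adjusted p = 0.697).

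miR-25-3p, the third guide arm from Mcm7, had raw intensities of 2618, 1572, 1415, 2562 and 1691 on T-C cell arrays. The Control cell arrays gave 2056, 1466, 1359, 1510 and 1670. After normalization its 5 T-C cell levels lay close together, at 10.87 ± 0.07 (SD, n = 5), and 5 of 5 exceeded the Control cell mean of 10.69 ± 0.19 (SD, n = 5). The groups still overlapped, and the difference was 0.18 (95% interval −0.12 to 0.48, limma adjusted p = 0.603).

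**Figure D3:**
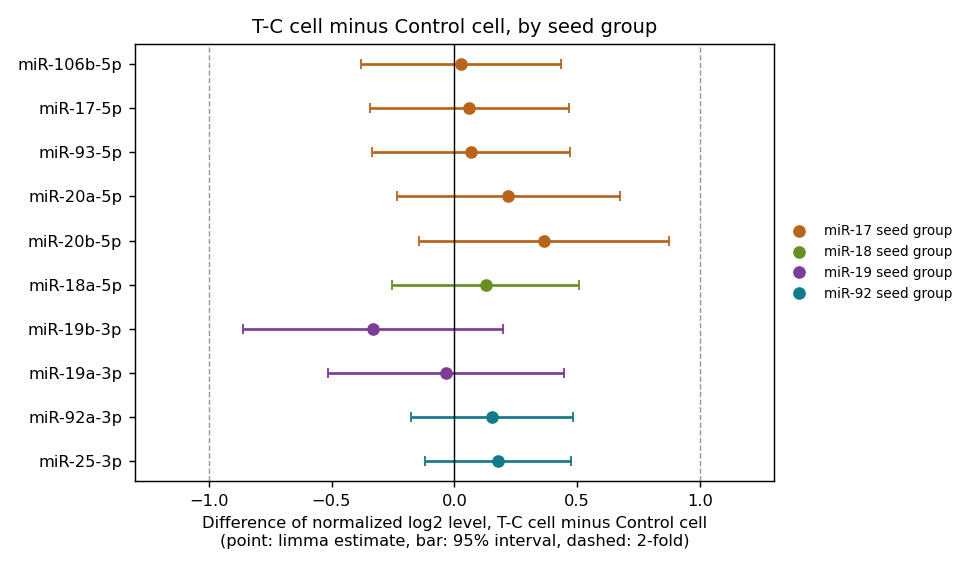
Difference of the normalized log2 level, T-C cell minus Control cell (x axis), for the 10 miRNAs by seed group (y axis); points are limma estimates, bars 95% intervals, and dashed lines mark 2-fold. All 10 bars cross 0 and stay inside the dashed lines, from −0.86 for miR-19b-3p to 0.87 for miR-20b-5p.

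By cluster, the median log2 difference was 0.09 over the 6 miR-17-92 members and 0.07 over the 3 miR-106b-25 members. miR-20b-5p, the member taken from miR-106a-363, was at 0.37, and its tested cluster relatives miR-106a-5p and miR-363-5p were at 0.17 and 0.31. By seed, the median was 0.07 over the 5 members of the miR-17 group, −0.18 over the 2 of the miR-19 group and 0.17 over the 2 of the miR-92 group, and the value of miR-18a-5p was 0.13. These medians were set beside 0.02 for all tested miRNAs as a description, and 0 members of any cluster or seed group passed the limma test.

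Before scaling, the 10 miRNAs differed in brightness from array to array. The median log2 intensity over all miRNA spots, tested or not, ran otherwise, at 6.55, 6.93, 8.17 and 7.29 on T-C cell replicates 1 to 4. The mean of the blank spots was 82.2, 136, 223 and 135 on the same arrays. Brightness on replicates 1 and 4 was not particular to the 10. The endothelial marker miR-126a-3p read 5071, 2819, 2645 and 5079 on replicates 1 to 4, while miR-21a-5p read 10893, 13391, 14203 and 15929. The share of all tested miRNAs with either pattern was not counted. All 10 miRNAs were above their own mean over arrays on T-C cell replicates 1 and 4. On T-C cell replicate 2, 0 of 10 were, and on replicate 3, 1 of 10. The SD as a share of the mean raw intensity was larger in T-C cell than in Control cell samples for 9 of 10, the exception being miR-18a-5p. The same held for 72.1% of all tested miRNAs. After normalization the T-C cell SD was the larger for 6 of 10, against 76.7% of all tested miRNAs. On each of T-C cell replicates 1 and 4, 9 of 10 were still above their own mean. The exception was miR-106b-5p on replicate 1 and miR-92a-3p on replicate 4.

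Some members tracked each other closely from array to array. On the scale of log2(intensity + 50) without normalization, miR-106b-5p lay below miR-93-5p by between 0.28 and 0.61 on every array. The SD of this gap over the 10 arrays was 0.10, the smallest among the 45 pairs. The next smallest were those of miR-92a-3p with miR-25-3p (0.20), of miR-17-5p with miR-20a-5p (0.20) and of miR-17-5p with miR-93-5p (0.21). Each of these 4 pairs shares a seed, and 2 of them share a cluster.

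The median SD of the gap was 0.28 over the 12 pairs with a shared seed and 0.41 over the 33 without. It was 0.40 over the 18 pairs within a cluster and 0.35 over the 27 across clusters. Pairs share members and arrays, so these medians are a description. The kinds of pair also differed in brightness. The faint miR-18a-5p, alone in its seed group, entered only pairs without a shared seed. Background was not subtracted before the gaps were taken, and the part of brightness in these medians was not tested. Sequence likeness and gap were not always matched: miR-19a-3p and miR-19b-3p, which differ at a single base, had a gap SD of 0.38. The widest gap SD, 0.76, belonged to miR-18a-5p and miR-19b-3p, both of miR-17-92. The within-array gap overlapped between T-C cell and Control cell samples for all 45 pairs.

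**Figure D4:**
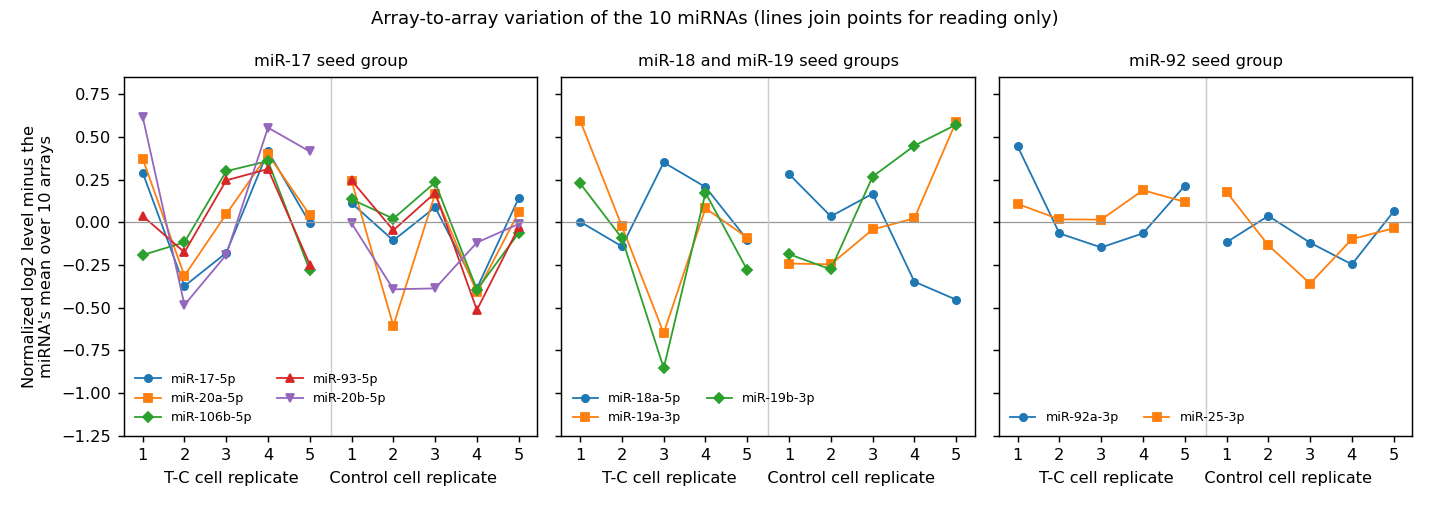
Normalized log2 level of each miRNA minus its mean over the 10 arrays (y axis) by replicate (x axis; T-C cell left, Control cell right of the grey line), 1 panel for 1 or 2 seed groups. On T-C cell replicate 3 miR-19a-3p and miR-19b-3p are at their lowest while miR-18a-5p is at its highest.

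miR-18a-5p and the miR-19 group parted on some arrays. On T-C cell replicate 3 the normalized log2 levels of miR-19b-3p and miR-19a-3p, 9.42 and 7.64, were their lowest of the series, and that of miR-18a-5p, 8.88, was its highest. On Control cell replicate 5 the order was turned, with miR-19b-3p at 10.85, its highest, miR-19a-3p at 8.88, level with its highest on T-C cell replicate 1, and miR-18a-5p at 8.08, its lowest. miR-18a-5p and miR-19a-3p were faint, and these 2 arrays had the highest and the lowest detection limits; the part of the limits in the split was not tested.

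The other arms of these hairpins and the remaining paralogues made up 18 relatives, and 2 of them were detected on enough arrays to be tested. miR-106a-5p, the X-linked paralogue that differs from miR-17-5p by U10A, is shown for comparison with the miR-17 seed group:
mmu-miR-106a-5p: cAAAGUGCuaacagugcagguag
Its raw intensities were 1501, 504, 469, 1293 and 730 on T-C cell arrays, and 657, 608, 747, 564 and 750 on Control cell arrays, with T-C cell replicates 1 and 4 above and replicates 2 and 3 below all Control cell arrays. The log2 difference was 0.17 (95% interval −0.24 to 0.58, limma adjusted p = 0.731). Its gap to miR-17-5p had an SD of 0.14, and that to miR-20b-5p, from its own cluster, one of 0.24.

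miR-363-5p, the passenger arm of the last X-linked hairpin, was above the limit on all 10 arrays while its guide arm miR-363-3p was above it on 2. On T-C cell replicate 3 the 2 spots of miR-363-5p differed by 1.90 log2 units, and no RefSeq mature miRNA was found under its name. Its log2 difference was 0.31 (95% interval −0.45 to 1.07, limma adjusted p = 0.731), with raw intensities from 311 to 677 on T-C cell arrays and from 97.1 to 746 on Control cell arrays. This difference rested on single arrays, at 0.04 when Control cell replicate 5 was left out and 0.59 when Control cell replicate 2 was, and it was 0.10 with the lower of the 2 spots. By limma 0 of the 2 tested relatives passed, and 0 had an unadjusted p under 0.05 by limma or by exact permutation. The 16 not tested were miR-17-3p, miR-18a-3p, miR-19a-5p, miR-20a-3p, miR-19b-1-5p, miR-19b-2-5p, miR-92a-1-5p, miR-92a-2-5p, miR-106b-3p, miR-93-3p, miR-25-5p, miR-106a-3p, miR-18b-5p, miR-18b-3p, miR-20b-3p and miR-363-3p. Of these, miR-18a-3p came nearest, above the limit on 4 of 10 arrays.

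Of the 4 miRNAs outside the clusters with a shared seed, miR-92b-3p was tested. It had raw intensities of 2650, 995, 850, 1538 and 1216 on T-C cell arrays, and of 1044, 1003, 978, 902 and 1031 on Control cell arrays. The log2 difference was 0.33 (95% interval −0.02 to 0.68, limma adjusted p = 0.311). The exact two-sided permutation p was 0.0159 before adjustment. Over the alternatives the limma adjusted p was lowest, at 0.0894, with quantile normalization. miR-32-5p, miR-367-3p and miR-6383 were above the limit on at most 1 array and were not tested.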

How the data were processed

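Per the labels, 1 µg of total RNA was poly(A)-tailed, tagged, stained with Cy3 and run on arrays by LC Sciences. The authors deposited the median intensity of each spot, unscaled between arrays, and a second pair of intensity columns is empty in all 10 files, per the file headers. The scanner, the image software and the release of miRBase are not stated in the sources used here. The mean of log2(intensity + 50) over 2 spots was normalized by cyclic loess. miRNAs above the blank mean plus 3 SD on at least 5 of 10 arrays (476) were tested with limma 3.58.1 in R 4.3.3 (eBayes with a trend, two-sided, Benjamini-Hochberg over all 476). The procedure was tested on simulated data.

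Groups and replicate numbers come from the titles. Replicate arrays were not duplicates (highest correlation 0.979). All 10 members and every tested relative were named, and from the other lists up to 2 examples with the smallest p. The members and lists were chosen with earlier results of these data known. Positions are from RefSeq (GRCm38.p6) and GENCODE M21, read with Python 3.11.15. The alternatives were other scalings, offsets, filters, weights and tests, a replicate block and single arrays left out.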

Additional observations from a re-analysis of the deposited data

How the results depend on the processing

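Under all 24 alternatives, 0 members and 0 cluster relatives passed, also with single arrays left out (0 to 0). The count over all tested miRNAs, 37, was 14 with median centring (1 higher, 13 lower), 3 with the blank mean subtracted and 1 with no filter. It was 18 (9 higher, 9 lower) when restricted to miRNAs above the limit on all 10 arrays. By exact permutation it was 0, with 85 at an unadjusted p under 0.05 and a smallest possible p of 0.00794. With single arrays left out it ran from 1 to 44. It was 12 and 2 without T-C cell replicates 1 and 4, and 3, 1, 1 and 3 without Control cell replicates 1, 2, 3 and 5. It was 47 with quantile normalization (14 higher, 33 lower) and 1 when T-C cell replicates 1 and 3 were both left out, a choice made after seeing the data. With the replicate block it was 22; the numbers share no stated source, same-numbered arrays had correlations from −0.202 to 0.26, and 1 of 10 arrays correlated best with its own number.

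Signs turned as follows, and the cause was not tested. With array weights the log2 differences were −0.0381 for mmu-miR-17-5p, −0.0417 for mmu-miR-18a-5p, −0.0907 for mmu-miR-106b-5p and −0.0869 for mmu-miR-93-5p. mmu-miR-106b-5p was −0.0121 with the lower of the 2 spots and −0.0022 without those 2 arrays, and mmu-miR-19a-3p was 0.0281 with median centring and 0.136 without normalization. With single arrays left out, mmu-miR-17-5p ranged from −0.0272 (without Control cell replicate 4; below 0 also without T-C cell replicate 4) to 0.160, mmu-miR-106b-5p from −0.0680 (below 0 also without T-C cell replicate 3 or 4) to 0.0855, mmu-miR-93-5p from −0.0490 to 0.139 and mmu-miR-19a-3p from −0.197 to 0.120 (above 0 when T-C cell replicate 3 was left out, and likewise Control cell replicate 5). The hepatocyte marker mmu-miR-192-5p ranged from −0.167 (without Control cell replicate 1, where its 2 spots differed by 6.12 log2 units) to 0.726. miR-20a-5p, miR-19b-3p, miR-92a-3p, miR-25-3p and miR-20b-5p kept their sign in every alternative that tested them. miR-18a-5p, miR-19a-3p and miR-20b-5p could not be tested among miRNAs above the limit on all 10 arrays.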

Other observations

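Growth-linked miRNAs outside the clusters were likewise not called. Their median log2 difference was −0.08, with 3 of 8 above 0, against 0.10 and 8 of 10 for the members. Of 8, among them the abundant injury and growth miRNA miR-21a-5p, 0 passed with limma (7.77% of all tested miRNAs did), 0 had an unadjusted limma p under 0.05 (18.3% of all tested), and the log2 differences (T-C cell minus Control cell) ran from −0.26 to 0.21. The 2 with the smallest p were miR-21a-5p at −0.26 (95% interval −0.54 to 0.03, limma adjusted p = 0.362; unadjusted exact permutation p = 0.0317, where 85 of 476 miRNAs had one under 0.05) and miR-130b-3p at −0.18 (−0.54 to 0.18, limma adjusted p = 0.666). Of the growth-restraining miRNAs of the miR-15/16 and miR-34 groups, 5 were tested and 0 passed, with 0 at an unadjusted p under 0.05 by limma or exact permutation and differences from −0.32 for miR-34a-5p to 0.16 for miR-15b-5p.

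Among markers of other cell types, 5 of 5 leukocyte miRNAs lay above 0 in T-C cell samples, with a median log2 difference of 0.38, against 52.9% above 0 and a median of 0.02 over all tested miRNAs. Of the 5, miR-150-5p, abundant in mature lymphocytes, rose by 0.86 (limma adjusted p = 0.0433) and 4 did not pass, against 1.47% of all tested miRNAs that rose. The miR-150-5p difference stayed above 0 under all 24 alternatives and past the threshold in 9 of them, with an adjusted p from 0.0223 to 0.876; the call was lost when T-C cell replicate 1, 4 or 5 was left out, or Control cell replicate 1, 2, 3 or 5. miR-342-3p, at 0.38, had an unadjusted limma p of 0.0319 (adjusted p = 0.195). The summed raw intensity of the 5 leukocyte miRNAs ran from 2380 to 5917 in T-C cell and from 1984 to 2478 in Control cell samples, and the part of such cells in the members' values was not tested. Among the tested hepatocyte (4), erythroid (1), endothelial (1), fibroblast and smooth muscle (4), epithelial (5) and striated muscle (3) markers, 0 passed with limma. The largest differences were those of the striated muscle miRNA miR-133a-3p, −0.67, and of miR-192-5p, 0.47 (95% interval −0.68 to 1.61, limma adjusted p = 0.731). The miR-192-5p value included Control cell replicate 1, where its 2 spots differed by 6.12 log2 units, and it was −0.167 without that array. For miR-133a-3p the limma adjusted p was 0.119 and the unadjusted exact permutation p 0.0397, with an unadjusted limma p of 0.0155. The limma adjusted p of miR-133a-3p was 0.0430 with array weights, 0.0470 when T-C cell replicate 3 was left out and 0.0474 when Control cell replicate 4 was.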
